A study of Mus musculus with 15 samples.

Results

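The 10 genes described here set how the liver senses, stores and exports iron: Hamp, Hamp2, Hfe, Tfr2, Bmp6, Tfrc, Trf, Slc40a1, Fth1 and Ftl1. They were taken as the probe sets that carry 1 of these symbols and no other in the platform's gene table, with 1 probe set per gene, the brightest on average over the arrays. All 10 were measured, of 19938 genes tested.

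Hepcidin, the peptide made from Hamp in hepatocytes, is the hormone that limits iron entry into plasma: it binds ferroportin, the cellular iron exporter, and causes its removal from the cell surface. Hepatocytes raise Hamp when BMP6 from sinusoidal endothelial cells activates SMAD signalling, a response that needs HFE, transferrin receptor 2 and hemojuvelin, and when IL-6 activates STAT3 during inflammation. Cells take up transferrin-bound iron through transferrin receptor 1 and keep the surplus in ferritin, and iron regulatory proteins adjust both through their mRNAs.

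Whole livers of 15 C57BL/6 mice, all labelled male and kept on standard chow, were profiled on Affymetrix whole-transcript arrays, 1 mouse per array and 3 per group, at an age of 8 weeks. The 2 double knockouts, NEMO/Jnk1 DKO and NEMO/Jnk2 DKO, lacked Jnk1 (gene Mapk8) or Jnk2 (gene Mapk9) in every cell and had a floxed NEMO gene (Ikbkg) deleted by an albumin-driven Cre, which acts in hepatocytes and leaves NEMO in the liver's other cells. Jnk1 KO and Jnk2 KO mice carried the global kinase deletion alone, and the control mice, called WT, carried floxed NEMO without recombination. No group lacked NEMO alone, so its loss was read on each Jnk-null background. The labels give every mouse its own number but not its litter, so p-values measure the spread between these mice. Values are log2 expression levels, differences are log2 differences with their standard error (SE), and a gene was called at a Benjamini-Hochberg adjusted p under 0.05 over all 19938 genes (limma, n = 3 arrays per group unless stated). In bulk tissue, fewer cells of a type and less RNA per cell cannot be told apart.

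Some arrays went against their labels. Mapk9 read 2.39 to 3.28 in the 6 Jnk2-null arrays and 7.41 to 7.67 in the 9 others, so that deletion showed in every array. Mapk8 separated less: it read 5.87 to 6.23 in 5 Jnk1-null arrays and 6.53 in NEMO/Jnk1 DKO replicate 3, against 6.58 to 7.03 in the 9 arrays with Jnk1. That replicate had Ikbkg at 6.85, the highest of the double knockouts, and values in which it alone stands for its group rest on it. Ly6d, a gene that was high in the double knockouts, read 7.88 to 10.48 there. Replicate 1 of Jnk1 KO had 10.12 and replicate 3 of Jnk2 KO had 9.70, while the remaining 7 arrays labelled as having NEMO held 4.67 to 5.35. Ikbkg stood at 6.75 and 6.24 in these 2 arrays, within its range of 6.18 to 6.85 in the double knockouts and under the 7.03 to 7.41 of those 7. They are called the doubted arrays. Results are from all arrays unless the doubted ones are said to be left out, and some are given only 1 way. Without them Jnk1 KO and Jnk2 KO keep 2 arrays each, and the other groups keep 3. The doubted arrays were singled out by expression in these same data, through their likeness to the double knockouts. The p-values of fits without them follow that choice, which may widen differences between double and single knockouts. In addition, 3 arrays labelled male had Xist at 8.68 to 9.17, against 2.40 to 2.82 in the other 12, and a mean of 3 Y-linked genes of 2.75 to 2.98, against 6.79 to 7.26. These arrays with the female pattern were NEMO/Jnk1 DKO replicates 1 and 2 and Jnk1 KO replicate 1. The mean of 10 hepatocyte markers lay between 12.17 and 12.45 in all 15 arrays, as the label liver has it.

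The 250 bases before the start of Hamp and of its mouse paralog Hamp2 are shown because BMP and STAT signals are known to reach the Hamp promoter through short elements there, which can be looked for in both windows. Both genes lie on chromosome 7, Hamp at chr7:30942368-30944029 and Hamp2 at chr7:30922372-30924181, on the minus strand of GRCm38.p6. The sequences, from RefSeq, cover chr7:30944030-30944279 and chr7:30924182-30924431 and run 5′ to 3′ towards the start. Capitals mark GGCGCC, the core of the BMP-responsive element, and TTCTTGGAA, a STAT site.
Hamp: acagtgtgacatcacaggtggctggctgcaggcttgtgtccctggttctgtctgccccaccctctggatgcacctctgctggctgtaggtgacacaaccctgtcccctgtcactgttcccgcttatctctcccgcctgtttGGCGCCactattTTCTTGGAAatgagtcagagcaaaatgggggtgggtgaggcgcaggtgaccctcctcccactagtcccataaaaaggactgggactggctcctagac
Hamp2: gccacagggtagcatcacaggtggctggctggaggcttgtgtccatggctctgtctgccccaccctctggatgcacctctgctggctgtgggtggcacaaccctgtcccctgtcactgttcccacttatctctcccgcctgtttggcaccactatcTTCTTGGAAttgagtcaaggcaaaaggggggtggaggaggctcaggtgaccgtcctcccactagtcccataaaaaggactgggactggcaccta
The windows were identical at 227 of 253 alignment columns (89.7%). The Hamp window held GGCGCC at positions -109 to -104 and TTCTTGGAA at -97 to -89, counted back from the start. In the Hamp2 window TTCTTGGAA stood at -94 to -86, and the letters GGCGCC were not found on either strand. Over 32851 mouse promoter windows of RefSeq of the same length, GGCGCC was present in 9.59% and TTCTTGGAA in 0.365%, and 3 windows (0.00913%) held both. A match is a description of the letters and not of binding.

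Hamp varied between mice of 1 group more than almost any gene on the array. It read 7.96, 8.01 and 9.52 in NEMO/Jnk1 DKO livers. It read 10.40, 9.20 and 9.25 in NEMO/Jnk2 DKO livers. The Jnk1 KO livers had 10.71, 9.70 and 10.33. The first 2 NEMO/Jnk1 DKO arrays were the lowest of all 15, and the span from lowest to highest array was 2.75, or 6.73-fold. Jnk2 KO livers had 10.57, 10.36 and 8.86, the last of them a doubted array. WT livers had 9.34, 10.16 and 9.52, so that all other groups overlapped WT. The standard deviation (SD) within groups was 0.715, greater than that of 99.0% of all genes tested, whose median was 0.154. This SD is over all 15 arrays, so it takes in the doubted arrays and groups that mix arrays with and without the female pattern. In WT, which holds neither, the SD of Hamp was 0.43. For Hamp, both the lowest 2 arrays and the highest one carried the female pattern.

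The group means of Hamp were 8.50 ± 0.89 in NEMO/Jnk1 DKO, 9.62 ± 0.68 in NEMO/Jnk2 DKO, 10.25 ± 0.51 in Jnk1 KO, 9.93 ± 0.93 in Jnk2 KO and 9.67 ± 0.43 in WT (SD, n = 3 each). Ordered by mean, each group overlapped its neighbour. The widest gap was between NEMO/Jnk1 DKO and Jnk1 KO, whose arrays did not overlap: the difference was -1.75 (SE 0.50, 95% confidence interval -2.83 to -0.67, 0.30-fold) but did not pass after adjustment (limma adjusted p = 0.962). Without the doubted arrays it was -1.52 (SE 0.45, adjusted p = 0.0738), and with the female-pattern arrays also left out, where replicate 3 alone stands for NEMO/Jnk1 DKO and its spread is taken from the other groups, it was -0.50 (SE 0.47, adjusted p = 0.851). Against WT, Hamp in NEMO/Jnk1 DKO livers differed by -1.18 (SE 0.50, adjusted p = 0.266), and in NEMO/Jnk2 DKO livers by -0.05 (SE 0.50, adjusted p = 0.974, interval -1.13 to 1.03). The difference between the NEMO effects on the 2 Jnk-null backgrounds was -1.44 (SE 0.71, adjusted p = 1). Without the doubted arrays that difference was -0.67 (SE 0.64, adjusted p = 0.917). With the female-pattern arrays also left out its sign changed, to 0.35, and Hamp in NEMO/Jnk1 DKO differed from WT by -0.15. Replicate 3 alone stands for NEMO/Jnk1 DKO in these last 2 values.

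Hamp2, which arose by duplication in the mouse lineage and whose product is not known to act on iron as hepcidin does, spread even more. It read 8.19, 6.06 and 5.51 in NEMO/Jnk1 DKO livers. It read 6.47, 5.45 and 4.83 in NEMO/Jnk2 DKO livers. In Jnk1 KO livers it stood at 8.11, 6.61 and 6.83. NEMO/Jnk2 DKO replicate 3 was the lowest array of the 15, and NEMO/Jnk1 DKO replicate 1 was the highest, the same array in which Hamp was lowest. Jnk2 KO livers had 8.04, 7.26 and 4.96, with the doubted replicate 3 far below the other 2. WT livers were closest together, at 6.32, 6.85 and 6.31. The within-group SD was 1.1, greater than that of 99.7% of genes. This SD too is over all 15 arrays, and in WT alone the SD of Hamp2 was 0.31. Whether probes for Hamp and Hamp2 pick up each other's transcripts was not tested.

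By mean, Hamp2 was lowest in NEMO/Jnk2 DKO at 5.58 ± 0.83, followed by WT at 6.49 ± 0.31, NEMO/Jnk1 DKO at 6.59 ± 1.42, Jnk2 KO at 6.75 ± 1.60 and Jnk1 KO at 7.19 ± 0.81 (SD, n = 3 each), and neighbours in this order overlapped. NEMO/Jnk2 DKO differed from Jnk2 KO by -1.17 (SE 0.77, adjusted p = 0.748). Without the doubted arrays the groups no longer overlapped, and the difference was -2.06 (SE 0.62, 0.24-fold, adjusted p = 0.0732). With a term for the female pattern in that fit the same difference passed (SE 0.54, adjusted p = 0.0445), as it did with the female-pattern arrays left out as well (SE 0.38, adjusted p = 0.0103). Neither group of this contrast holds a female-pattern array, so its size stayed the same while the estimated spread became smaller.

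**Figure D1:**
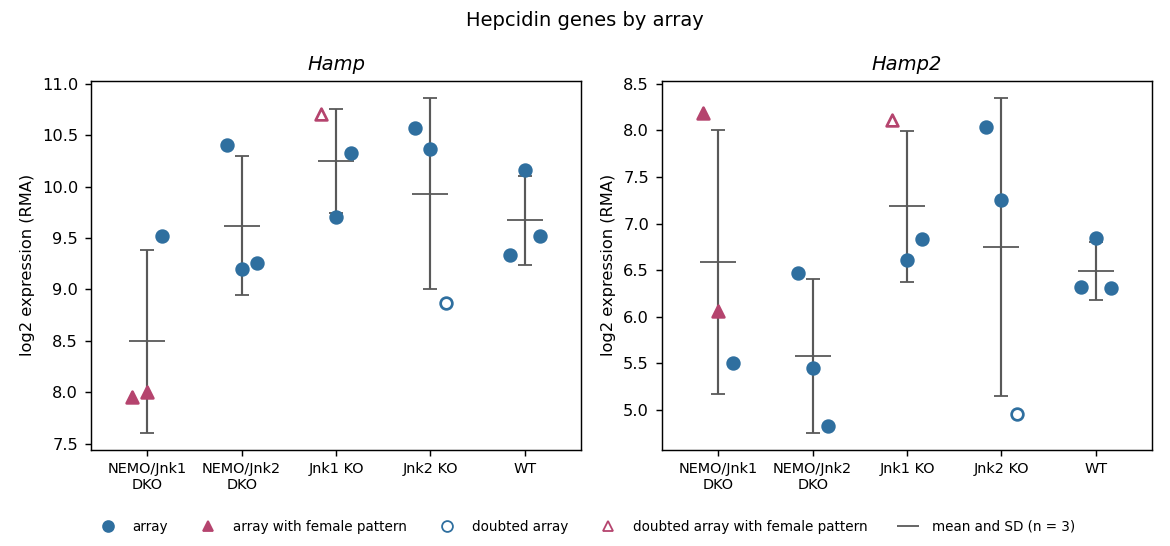
Log2 expression of Hamp (left) and Hamp2 (right) in each array, with the mean and SD of each group (n = 3). Triangles are arrays with the female pattern and open symbols the 2 doubted arrays; NEMO/Jnk1 DKO replicates 1 and 2 hold the lowest Hamp values (7.96 and 8.01), while replicate 1 holds the highest Hamp2 value (8.19).

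As labelled, 0 of the 10 genes passed in any of the 9 comparisons. The share of all genes called was 0.0652% for NEMO/Jnk1 DKO against WT, 2.63% for NEMO/Jnk2 DKO against WT, 0.01% for Jnk1 KO against WT and 0.411% for Jnk2 KO against WT. It was 0% for NEMO/Jnk1 DKO against Jnk1 KO, 0.00502% for NEMO/Jnk2 DKO against Jnk2 KO, 0.13% for Jnk1 KO against Jnk2 KO, 0.105% between the double knockouts and 0% for the difference of the NEMO effects. Read against these low shares, 0 calls among 10 genes is near the background of the whole array. At an unadjusted p under 0.05, against WT there were 2 of the 10 in NEMO/Jnk1 DKO (16.3% of all genes), 2 in NEMO/Jnk2 DKO (18.9%), 0 in Jnk1 KO (5.58%) and 1 in Jnk2 KO (12.1%). At the same threshold there were 2 between NEMO/Jnk1 DKO and Jnk1 KO (4.55% of all genes), 1 between NEMO/Jnk2 DKO and Jnk2 KO (7.91%), 2 between Jnk1 KO and Jnk2 KO (7%), 3 between the double knockouts (5.44%) and 0 for the difference of the NEMO effects (2.75%). The median difference of the 10 genes lay between -0.07 and 0.17 over the 9 comparisons, against -0.04 to 0.01 for all genes.

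Without the doubted arrays, 1 of the 10 was called in 4 comparisons. These were NEMO/Jnk1 DKO against WT (7.91% of all genes called), NEMO/Jnk2 DKO against WT (10.6%), NEMO/Jnk1 DKO against Jnk1 KO (5.18%) and Jnk2 KO against WT (1.24%). The called genes were Tfrc and Hfe. None was called between NEMO/Jnk2 DKO and Jnk2 KO (5.85% of all genes called), Jnk1 KO and WT (0.015%), Jnk1 KO and Jnk2 KO (0.597%) or the double knockouts (0.321%), nor for the difference of the NEMO effects (0.01%). At an unadjusted p under 0.05 these comparisons, in turn, held 5 of the 10 beside 18.1% of all genes, 0 beside 5.07%, 1 beside 10.8%, 3 beside 7.5% and 2 beside 6.59%.

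**Figure D2:**
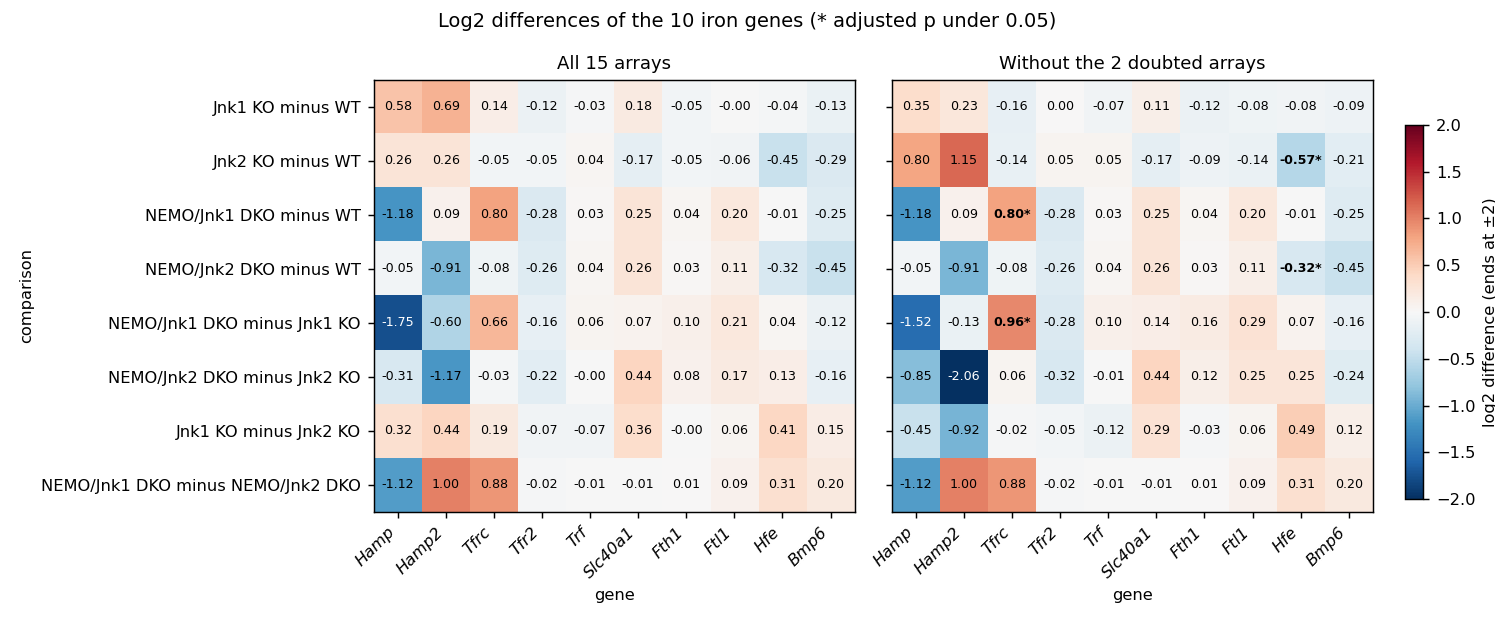
Log2 differences of the 10 genes (columns) in 8 comparisons (rows), from all 15 arrays (left) and without the 2 doubted arrays (right); the colour scale ends at 2 in either direction and an asterisk marks an adjusted p under 0.05. No cell on the left is marked, and 4 cells on the right are, 2 of Tfrc and 2 of Hfe.

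Tfrc, which encodes transferrin receptor 1, the main route of transferrin iron into dividing cells (chromosome 16, chr16:32608896-32632794), was high in NEMO/Jnk1 DKO livers. It read 8.84, 8.53 and 7.99 in NEMO/Jnk1 DKO livers and 7.49, 7.37 and 7.85 in NEMO/Jnk2 DKO livers. Jnk1 KO livers had 8.39, 7.54 and 7.44, Jnk2 KO livers 7.45, 7.57 and 7.80, and WT livers 7.80, 7.57 and 7.59. The 3 NEMO/Jnk1 DKO arrays lay above every array of NEMO/Jnk2 DKO, Jnk2 KO and WT, but the doubted Jnk1 KO replicate 1 stood among them. The level in NEMO/Jnk1 DKO was above that in WT by 0.80 (SE 0.24, 1.74-fold, adjusted p = 0.148) and above that in NEMO/Jnk2 DKO by 0.88 (SE 0.24, 1.84-fold, adjusted p = 0.372). Without the doubted arrays the excess over WT was unchanged in size and passed (SE 0.18, adjusted p = 0.0157), and that over Jnk1 KO was 0.96 (SE 0.20, 1.95-fold, adjusted p = 0.0138), against 0.66 (SE 0.24, adjusted p = 0.962) as labelled. Over NEMO/Jnk2 DKO it did not pass there (adjusted p = 0.0691), nor did the difference between the NEMO effects on the 2 Jnk-null backgrounds (0.90, SE 0.29, adjusted p = 0.495).

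The Tfrc values also split by the female pattern. The 3 arrays with that pattern held 8.39 to 8.84, against 7.37 to 7.99 in the other 12, a separation seen for 173 of the 19938 genes (0.868%). Within NEMO/Jnk1 DKO the 2 female-pattern arrays had 8.84 and 8.53 and the other array 7.99. Within Jnk1 KO the female-pattern array, also a doubted one, had 8.39 and the other 2 had 7.54 and 7.44. A term for the pattern, read after this split was seen, was 0.80 for Tfrc (SE 0.15, adjusted p = 0.0428), 1 of 60 genes called for that term (0.301%). With that term NEMO/Jnk1 DKO exceeded WT by 0.27 (SE 0.17, adjusted p = 0.882), and with the doubted and female-pattern arrays left out by 0.34 (SE 0.18, adjusted p = 0.521), where replicate 3 alone stands for the group. Since 2 of the 3 NEMO/Jnk1 DKO arrays carry the pattern and no array of NEMO/Jnk2 DKO, Jnk2 KO or WT does, the group and the pattern largely coincide.

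Beside Tfrc, the mean of 9 cycling-cell markers lay at 5.60 to 5.76 in NEMO/Jnk1 DKO, 5.31 to 6.17 in NEMO/Jnk2 DKO, 4.03 to 6.74 in Jnk1 KO, 4.13 to 5.30 in Jnk2 KO and 3.95 to 4.28 in WT. Without the doubted arrays all 9 were called higher in NEMO/Jnk1 DKO than in WT (7.91% of all genes called) and in NEMO/Jnk2 DKO than in WT (10.6%). As labelled 0 were called in NEMO/Jnk1 DKO (0.0652% of all genes) and 1 in NEMO/Jnk2 DKO (2.63%). There 8 (beside 16.3% of all genes) and 9 (beside 18.9%) had an unadjusted p under 0.05. The marker means of the double knockouts overlapped, while Tfrc did not (7.99 to 8.84 in NEMO/Jnk1 DKO, 7.37 to 7.85 in NEMO/Jnk2 DKO). The mean of 7 erythroid markers, of 15 listed, stayed between 4.02 and 4.48 in all arrays. This mean lay near 4.09, the level used to filter dim probe sets, so it cannot show whether erythroid content differed. Alas2, a gene of that list, encodes the erythroid form of the enzyme that starts heme synthesis and lay far above the list mean. It read 7.77 to 8.18 in the 3 female-pattern arrays and 8.53 to 9.57 in the other 12, the opposite order to Tfrc. A separation in that direction was seen for 208 of the 19938 genes (1.04%). The list mean overlapped between these sets of arrays, so the Alas2 values do not stand for the list. The part of these cell types in the Tfrc values was not tested.

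Hfe, whose product joins the complex that senses transferrin iron and mutations of which cause human hemochromatosis (chromosome 13, chr13:23702034-23710854), was lower in livers that lacked Jnk2. It read 7.61, 7.85 and 7.74 in NEMO/Jnk2 DKO livers and 7.49, 7.48 and 7.84 in Jnk2 KO livers. In livers with Jnk2 it read 8.08, 8.01 and 8.06 in NEMO/Jnk1 DKO, 8.07, 7.98 and 7.98 in Jnk1 KO and 7.90, 8.12 and 8.15 in WT. All 6 Jnk2-null arrays lay below all 9 others, which was the case for 76 of the 19938 genes (0.381%). Mapk9, the deleted gene, is on another chromosome, and the cause of the Hfe split was not tested. The doubted Jnk2 KO replicate 3 was the highest of its group and close to NEMO/Jnk2 DKO replicate 2.

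Group by group, Jnk2 KO differed from WT by -0.45 for Hfe (SE 0.11, 0.73-fold, adjusted p = 0.0961), and NEMO/Jnk2 DKO from WT by -0.32 (SE 0.11, 0.80-fold, adjusted p = 0.125). Both passed once the doubted arrays were left out, at -0.57 (SE 0.10, adjusted p = 0.0176) and -0.32 (SE 0.09, adjusted p = 0.0425). With a term for the female pattern in that fit, Jnk2 KO against WT still passed (SE 0.11, adjusted p = 0.026). NEMO/Jnk2 DKO against WT did not pass there. Jnk1 KO exceeded Jnk2 KO by 0.41 (SE 0.11, adjusted p = 0.268), and NEMO/Jnk1 DKO exceeded NEMO/Jnk2 DKO by 0.31 (SE 0.11, adjusted p = 0.652).

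Contrasts that pool the groups by Jnk genotype were chosen after these values were seen. Both Jnk2-null groups against the 3 with Jnk2 gave -0.37 for Hfe (SE 0.07, 0.77-fold, adjusted p = 0.0195), where 1.35% of all genes were called. Leaving out the doubted arrays, this was -0.42 (SE 0.07, adjusted p = 0.00432), where 3.25% were called. Against the 2 Jnk1-null groups the Jnk2-null groups differed by -0.36 (SE 0.08, adjusted p = 0.0585; 0.547% of genes called), and by -0.40 (SE 0.07, adjusted p = 0.0198; 1.12% called) without the doubted arrays. The call over the 3 groups with Jnk2 was lost without the female-pattern arrays (-0.36, adjusted p = 0.0724), without Jnk2 KO replicate 2 (-0.34, adjusted p = 0.0599) and without NEMO/Jnk2 DKO replicate 1 (-0.34, adjusted p = 0.0706). Of the other 9 genes, 0 were called in these pooled contrasts with either set of arrays.

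**Figure D3:**
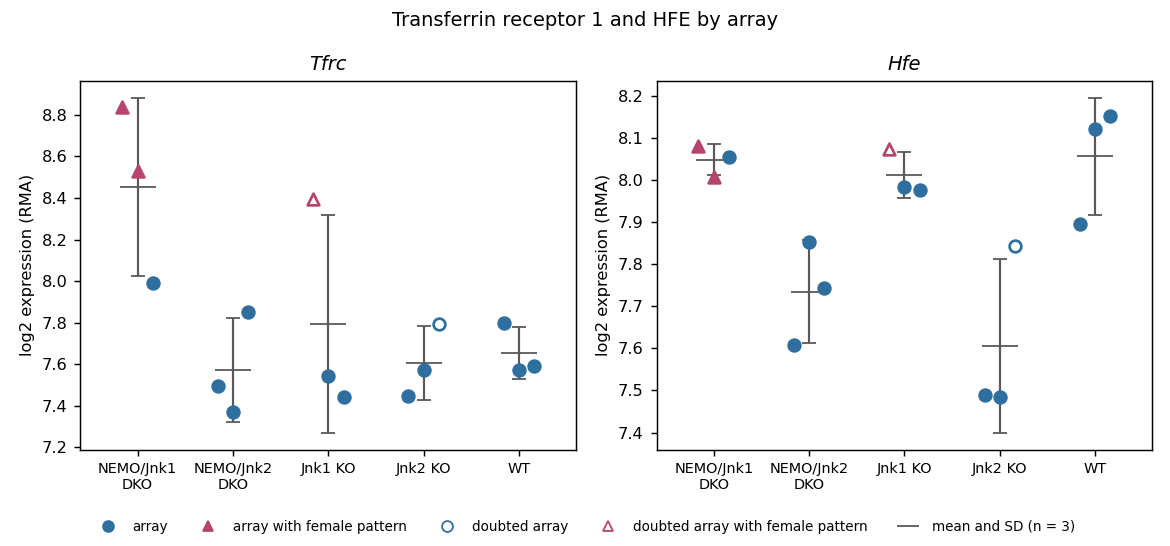
Log2 expression of Tfrc (left) and Hfe (right) in each array, with the mean and SD of each group (n = 3); triangles are female-pattern arrays and open symbols doubted ones. Tfrc is at 8.39 or above in the 3 triangles and at 7.99 or below elsewhere, and Hfe is at 7.85 or below in the Jnk2-null groups and at 7.90 or above in the others.

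Tfr2, the second transferrin receptor, which signals to Hamp in hepatocytes rather than importing much iron (chromosome 5), ranged from 9.02 to 9.69 over the 15 arrays, with a within-group SD of 0.176, greater than that of 62.9% of genes. It stood at 9.24 ± 0.19 in NEMO/Jnk1 DKO, 9.26 ± 0.13 in NEMO/Jnk2 DKO, 9.40 ± 0.21 in Jnk1 KO, 9.47 ± 0.21 in Jnk2 KO and 9.52 ± 0.13 in WT (SD, n = 3 each). The lowest array was NEMO/Jnk1 DKO replicate 1. NEMO/Jnk1 DKO arrays lay below all WT arrays, with a difference of -0.28 (SE 0.14, adjusted p = 0.326). With a term for the female pattern this difference was -0.10 (SE 0.15, adjusted p = 0.968). The 3 female-pattern arrays read 9.02 to 9.33 and the other 12 read 9.18 to 9.69. Without the doubted arrays NEMO/Jnk1 DKO differed from Jnk1 KO by -0.28 (SE 0.13, adjusted p = 0.285). NEMO/Jnk2 DKO differed there from Jnk2 KO by -0.32 (SE 0.13, adjusted p = 0.207).

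Bmp6, the ligand that sets basal Hamp (chromosome 13, chr13:38345716-38500314), had its lowest mean in NEMO/Jnk2 DKO livers, 5.12 ± 0.21 (SD, n = 3). It read 5.11, 5.33 and 4.91 in NEMO/Jnk2 DKO livers and 5.36, 5.86 and 5.49 in WT livers, which did not overlap (difference -0.45, SE 0.14, 0.73-fold, adjusted p = 0.107). Without the doubted arrays Bmp6 differed by the same amount (SE 0.14, adjusted p = 0.0639). In NEMO/Jnk1 DKO it read 5.41, 5.25 and 5.29, in Jnk1 KO 5.36, 5.31 and 5.64, and in Jnk2 KO 5.29, 5.43 and 5.13, all within the span of the other groups. In the liver its RNA comes mainly from sinusoidal endothelial cells, and the mean of 12 of their markers was 7.08 to 7.30 in NEMO/Jnk2 DKO and 7.03 to 7.37 in WT. As labelled 0 of the 12 were called beside 2.63% of all genes, a count near that share. Whether the share of these cells bears on Bmp6 was not tested.

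Slc40a1, which encodes ferroportin (chromosome 1), ranged from 9.70 to 10.45. It read 10.40, 10.45 and 10.03 in NEMO/Jnk2 DKO livers, above the 9.96, 9.75 and 9.85 of Jnk2 KO livers, a difference of 0.44 (SE 0.16, 1.35-fold, adjusted p = 0.563). Without the doubted arrays this difference was also 0.44 (SE 0.18, adjusted p = 0.202). NEMO/Jnk1 DKO livers had 10.25, 10.37 and 10.23, Jnk1 KO livers 10.35, 10.07 and 10.22, and WT livers 9.70 to 10.39. WT alone covered most of the range of all groups. Kupffer cells, the liver's resident macrophages, are a major site of ferroportin, and the mean of 10 of their markers was 7.01 to 7.55 in NEMO/Jnk2 DKO and 6.69 to 7.39 in Jnk2 KO, with 0 of 10 called as labelled and 4 at an unadjusted p under 0.05 (7.91% of all genes). Their part in Slc40a1 was not tested.

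Transport and storage genes were nearly flat. Trf, the plasma iron carrier transferrin made by hepatocytes (chromosome 9), lay between 13.01 and 13.18 in all 15 arrays, with a within-group SD of 0.049, and 0.216% of genes had a smaller one. Fth1, the ferritin heavy chain that oxidises iron for storage (chromosome 19), ranged from 11.96 to 12.21. Ftl1, the light chain (chromosome 7), spanned 12.04 to 12.17 in NEMO/Jnk1 DKO, 11.89 to 12.12 in NEMO/Jnk2 DKO, 11.72 to 12.04 in Jnk1 KO, 11.74 to 11.98 in Jnk2 KO and 11.85 to 11.97 in WT. NEMO/Jnk1 DKO arrays lay above all WT arrays for Ftl1, by 0.20 (SE 0.10, adjusted p = 0.330). Without the doubted arrays Ftl1 was 0.29 higher in NEMO/Jnk1 DKO than in Jnk1 KO (SE 0.10, adjusted p = 0.132). There it was 0.25 higher in NEMO/Jnk2 DKO than in Jnk2 KO (SE 0.10, adjusted p = 0.191). A further 4 probe sets carry Ftl1 together with Mir692 symbols and were not tested as Ftl1, and their values followed it with Pearson's r between 0.951 and 0.986 over the 15 arrays. Ferritin and transferrin receptor 1 are controlled largely at the level of translation and mRNA decay, so a flat ferritin mRNA says nothing of the protein.

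**Figure D4:**
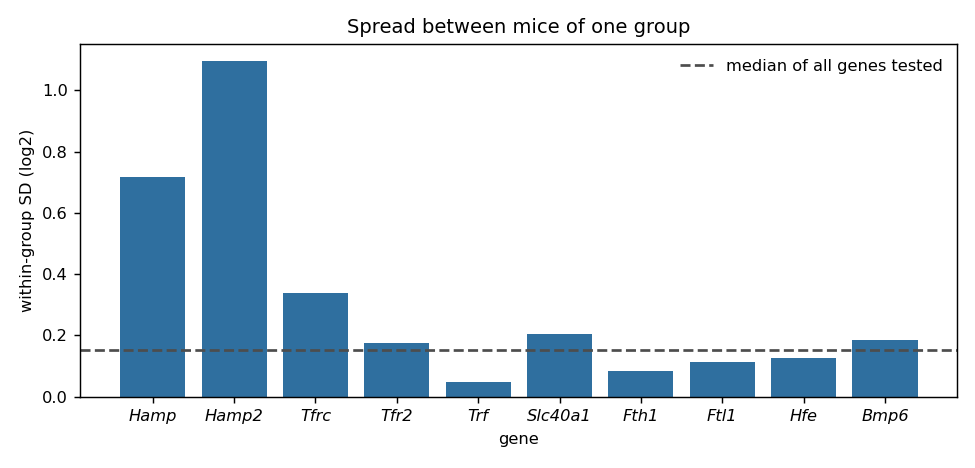
Within-group SD of each of the 10 genes in log2 units (bars, 5 groups of 3 arrays, the doubted ones included), with the median over all 19938 genes as a dashed line. Hamp (0.715) and Hamp2 (1.1) stand far above the line at 0.154, and Trf (0.049) is below it.

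Around these genes, 7 lists of the hepcidin and iron pathways were counted. In the BMP-SMAD branch (25 of 27 genes measured), 0 were called as labelled in any comparison, where at most 2.63% of all genes were called. The list's median difference lay between -0.06 and 0.06, against -0.04 to 0.01 for all genes. Between NEMO/Jnk2 DKO and WT 7 of the 25 had an unadjusted p under 0.05, beside 18.9% of all genes, and the lowest p were those of the ligand gene Bmp4 (-0.35, adjusted p = 0.0764) and Fgl1, whose product binds BMP6 (0.97, adjusted p = 0.0873). Once the 2 doubted arrays were removed, Id1, a direct SMAD target, rose by 0.85 (SE 0.19, adjusted p = 0.0134) in NEMO/Jnk1 DKO livers against WT and by 1.01 (SE 0.19, adjusted p = 0.00357) in NEMO/Jnk2 DKO livers against WT. In the same comparisons Atoh8, a transcription factor that activates Hamp, fell by 0.40 (SE 0.11, adjusted p = 0.0464) and by 0.42 (SE 0.11, adjusted p = 0.0314). Between NEMO/Jnk2 DKO and Jnk2 KO 4 of the 25 rose without the doubted arrays, where 5.85% of all genes were called. Id3 rose by 1.27 (adjusted p = 0.00307) and Bmp5 by 0.70 (adjusted p = 0.0202). Fkbp1a, a brake on BMP receptors, rose by 0.61 (adjusted p = 0.00523), and Hjv, which encodes hemojuvelin, by 0.52 (adjusted p = 0.0264).

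In the IL-6 and STAT3 branch (13 of 14 measured), 2 genes were called as labelled, both in NEMO/Jnk2 DKO livers against WT (2.63% of all genes called). The oncostatin M receptor gene Osmr was higher by 1.36 (SE 0.29, adjusted p = 0.0318), and the LIF receptor gene Lifr was lower, at -1.16 (SE 0.24, adjusted p = 0.0282). Il6 itself read between 2.02 and 2.26 in all 15 arrays, at the bottom of the scale. Leaving the doubted arrays out, Stat3 was 0.90 higher (SE 0.15, adjusted p = 0.0107) and Il6ra 0.97 higher (SE 0.18, adjusted p = 0.0211) in Jnk2 KO livers than in WT. In NEMO/Jnk2 DKO livers against Jnk2 KO they were lower, Stat3 at -0.57 (SE 0.15, adjusted p = 0.0417) and Il6ra at -1.21 (SE 0.18, adjusted p = 0.00209).

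The acute phase list (21 of 23 measured) holds genes that the same cytokines raise. In NEMO/Jnk2 DKO livers 7 of the 21 were called higher than in WT and 0 lower (2.63% of all genes called). The list median was 0.27 against -0.04 for all genes. In Jnk2 KO livers 3 were called higher than in WT and 0 lower (0.411% of all genes called), with a median of 0.56. In NEMO/Jnk1 DKO and Jnk1 KO livers 0 were called against WT (0.0652% and 0.01% of all genes called). At an unadjusted p under 0.05 there were 8 in NEMO/Jnk1 DKO (16.3% of all genes) and 1 in Jnk1 KO (5.58%). Saa2, an acute phase protein gene, averaged 8.02 ± 0.89 in NEMO/Jnk1 DKO, 10.94 ± 0.91 in NEMO/Jnk2 DKO, 7.89 ± 0.48 in Jnk1 KO, 10.79 ± 0.72 in Jnk2 KO and 7.68 ± 0.41 in WT (SD, n = 3 each). Both Jnk2-null groups lay above all other arrays, a separation seen for 40 of the 19938 genes (0.201%). Saa2 was higher than in WT by 3.26 in NEMO/Jnk2 DKO (SE 0.50, adjusted p = 0.00772) and by 3.10 in Jnk2 KO (SE 0.50, adjusted p = 0.0192). Hamp did not share this split: it spanned 8.86 to 10.57 in the 6 Jnk2-null arrays and 7.96 to 10.71 in the 9 others, which cover each other. Metallothionein Mt2 read 8.42 to 12.44 in those 6 arrays and in NEMO/Jnk1 DKO, and 5.83 to 9.32 in Jnk1 KO and WT.

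Among 15 measured genes of iron uptake and release (16 listed), Steap4 and Lcn2 stood out by the test. Steap4, a metalloreductase and also in the acute phase list, read 10.37, 10.22 and 10.47 in NEMO/Jnk2 DKO livers and 10.88, 11.38 and 10.31 in Jnk2 KO livers. It read 8.98, 9.04 and 8.82 in WT, so that it was higher by 1.41 in NEMO/Jnk2 DKO (SE 0.22, adjusted p = 0.00842) and by 1.91 in Jnk2 KO (SE 0.22, adjusted p = 0.00186). In NEMO/Jnk1 DKO it read 9.39 to 9.56, 0.53 above WT and called without the doubted arrays (SE 0.13, adjusted p = 0.0245). Lcn2, lipocalin 2, which binds the iron carriers of bacteria and is also in the acute phase list, was 4.08 higher in NEMO/Jnk2 DKO livers than in WT (SE 0.80, adjusted p = 0.0230). It read 9.36 to 9.71 in Jnk2 KO, 7.07 to 9.28 in NEMO/Jnk1 DKO, 5.70 to 8.82 in Jnk1 KO and 5.49 to 6.26 in WT. Slc39a14, the hepatocyte importer of iron that is not bound to transferrin, read 10.04 and 10.36 in Jnk2 KO replicates 1 and 2 but 9.07 in the doubted replicate 3, against 8.68 to 8.96 in WT. It was, without the doubted arrays, 1.43 higher in Jnk2 KO than in WT (SE 0.19, adjusted p = 0.00422) and lower in NEMO/Jnk2 DKO than in Jnk2 KO, at -1.10 (SE 0.19, adjusted p = 0.00470).

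**Figure D5:**
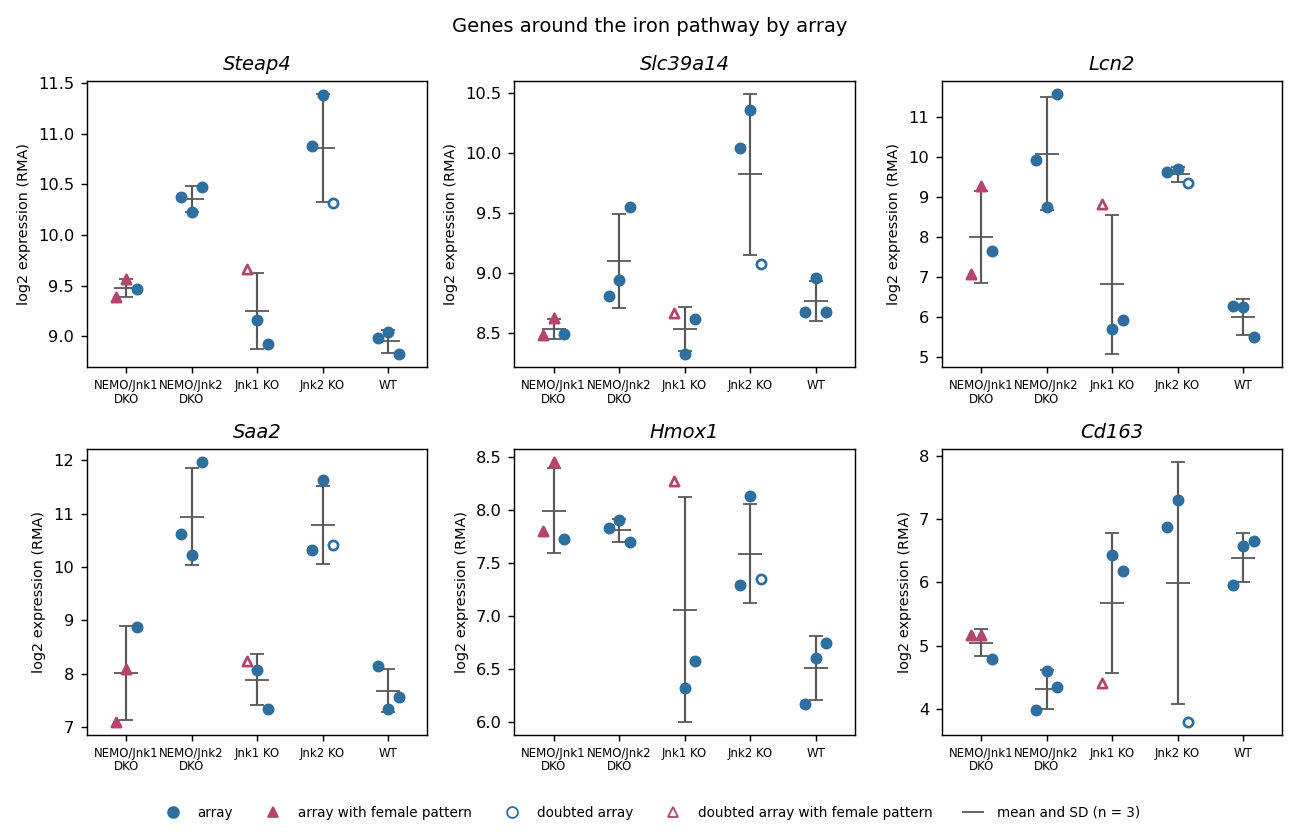
Log2 expression of 6 genes around the iron pathway in each array, with the mean and SD of each group (n = 3); triangles are female-pattern arrays and open symbols doubted ones. Steap4 and Saa2 are higher in both Jnk2-null groups than in WT, and the doubted Jnk1 KO array is at 8.28 for Hmox1, within the 7.70 to 8.46 of the double knockouts.

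Of 21 heme genes (22 listed), 1 was called as labelled: Urod, an enzyme of heme synthesis, at -0.35 in NEMO/Jnk2 DKO against WT (SE 0.08, adjusted p = 0.0424; 2.63% of all genes called). In the fit without the doubted arrays, Hmox1, the enzyme that breaks heme down and frees its iron, was higher than in WT by 1.49 in NEMO/Jnk1 DKO (SE 0.23, adjusted p = 0.00143), by 1.30 in NEMO/Jnk2 DKO (SE 0.23, adjusted p = 0.00238) and by 1.2 in Jnk2 KO (SE 0.25, adjusted p = 0.0380). It read 7.81, 8.46 and 7.73 in NEMO/Jnk1 DKO livers, 7.83, 7.91 and 7.70 in NEMO/Jnk2 DKO livers, 8.28, 6.33 and 6.58 in Jnk1 KO, 7.29, 8.13 and 7.35 in Jnk2 KO and 6.17, 6.61 and 6.75 in WT. Cd163, the macrophage receptor for haemoglobin bound to haptoglobin, was lower than in WT there, at -1.35 in NEMO/Jnk1 DKO livers (SE 0.20, adjusted p = 0.00131) and -2.08 in NEMO/Jnk2 DKO livers (SE 0.20, adjusted p = 5.06e-05). The mean of the 10 Kupffer markers, to which Cd163 belongs, was 7.34 to 7.72 in NEMO/Jnk1 DKO, 7.01 to 7.55 in NEMO/Jnk2 DKO and 6.64 to 7.15 in WT, so the list as a whole was not low where Cd163 was.

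Iron sensing and storage (9 of 10 measured) and mitochondrial iron (13 of 16 measured) had 0 calls as labelled in any comparison, where at most 2.63% of all genes were called. At an unadjusted p under 0.05 the most in any comparison were 1 of the 9, and 5 of the 13 between NEMO/Jnk2 DKO and WT, beside 18.9% of all genes. Outside the doubted arrays Ireb2, an iron regulatory protein that binds the mRNAs of Tfrc and the ferritins, was lower in NEMO/Jnk1 DKO than in WT at -0.45 (SE 0.12, adjusted p = 0.0426). Epas1, the hypoxia factor HIF-2α, was lower in NEMO/Jnk2 DKO than in Jnk2 KO at -1.12 (SE 0.22, adjusted p = 0.00817). It read 8.56 and 9.18 in the remaining Jnk2 KO arrays, 7.63 to 7.88 in NEMO/Jnk2 DKO and 7.74 to 8.42 in WT. In mitochondria Fdx1, a ferredoxin, was lower than in WT in both double knockouts, at -0.68 in NEMO/Jnk1 DKO livers (SE 0.14, adjusted p = 0.00951) and -0.64 in NEMO/Jnk2 DKO livers (SE 0.14, adjusted p = 0.00983), as was Abcb10, a heme-linked transporter, at -0.55 (SE 0.12, adjusted p = 0.0136) and -0.56 (SE 0.12, adjusted p = 0.00949).

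Over the 15 arrays, which share their groups and their processing, the genes whose values ran most like those of a member were listed as a description. For Hamp these were Ist1 (Pearson's r = 0.857), Cpt1a (0.811), Trbv1 (0.770), Srrd (0.762) and Kansl1 (0.761). For Hamp2 they were Got1 (r = 0.889), Adssl1 (0.856), Mat1a (0.818), Bag2 (0.789) and Akap7 (0.787). Hamp and Hamp2 shared none of these 5. For Tfrc they were Mmd2 (r = 0.922), Sult3a2 (0.917), Prom1 (0.914), Xist (0.908) and Sult3a1 (0.901), with Xist, the RNA of the inactive X chromosome, among them.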

How the data were processed

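Per the submitters' processing notes, the authors made the deposited log2 values with RMA, with no version given; the base of the logarithm was inferred from the range. RMA corrects background, normalizes by quantiles and summarises probe sets. It compresses differences near the ends of the scale. Array medians lay between 4.26 and 4.38, Pearson's r between 2 arrays was 0.976 to 0.991, and no pair was identical. The 15 arrays limit the precision.

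Of 35556 probe sets, 21789 had 1 gene symbol in the platform's table, 1621 had several and 12146 were not listed there. The brightest per symbol left 19938 genes. All 15 arrays entered 1 fit with a mean per group (limma 3.58.1, R 4.3.3). The female pattern means Xist above 6. Gene coordinates and promoters are those of RefSeq (GRCm38.p6), aligned with Biopython 1.88 in Python 3.11.15, and figures used matplotlib 3.10.9. Promoters of Trf and Slc40a1 were not used here. The fit was tested on simulated data.

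The members, lists and comparisons were chosen with earlier results of these data known. All 10 members are described. From each list, up to 4 genes past the threshold with the largest change in a comparison could be named, and 2 of lowest p from a list with none. The genes most like Hamp, Hamp2 and Tfrc are the 5 of highest r, leaving out provisional models, small RNAs and olfactory receptors. Alternatives were other fits, scalings, filters and sets of arrays.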

Additional observations from a re-analysis of the deposited data

How the results depend on the processing

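Over 28 other settings, 15 of which leave out 1 array, 0 of 19 followed gene differences reversed, 20 values newly passed and 3 no longer did. As labelled the count of iron genes called was 0 in all 9 comparisons. It became 1 without the 2 doubted arrays for Jnk2 KO against WT (Hfe), NEMO/Jnk1 DKO against WT (Tfrc), NEMO/Jnk2 DKO against WT (Hfe) and NEMO/Jnk1 DKO against Jnk1 KO (Tfrc). With the sex term in that fit, or with the female-pattern arrays left out too, it was 1 for Jnk2 KO against WT (Hfe) and for NEMO/Jnk2 DKO against Jnk2 KO (Hamp2). Array weights gave 1 for NEMO/Jnk1 DKO against WT and against NEMO/Jnk2 DKO (Tfrc both times), and a fit to only the arrays compared gave 1 for NEMO/Jnk1 DKO against WT (Tfrc, adjusted p = 0.0486). With single arrays left out the count ranged from 0 to 1 for Jnk2 KO against WT and Jnk1 KO against Jnk2 KO (1 without Jnk2 KO replicate 3, Hfe), and from 0 to 1 for NEMO/Jnk1 DKO against WT and against Jnk1 KO (1 without Jnk1 KO replicate 1, Tfrc). For Jnk2-null against Jnk1-null groups it was 1 (Hfe) with array weights, quantile normalization again, the dim filter and without the doubted arrays, and 0 to 1 with single arrays left out. For Jnk2-null groups against all with Jnk2 it was 1, became 0 without the female-pattern arrays, and ranged from 0 to 1 with single arrays left out. Same-numbered arrays of different groups did not deviate together (mean r -0.01 over 30 pairs, 4 of them above 0.1), so the numbers were not taken as pairs. With the replicate block the call of Hfe in that contrast stayed (-0.37, adjusted p = 0.0323), and the block changed 0 other calls of the 10 genes. The dim filter (above 4.09 in at least 3 arrays) kept all 10. The cause of these changes was not tested. No scaling moved the median of all genes by 0.1.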

Other observations

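The genes that ran most like Hfe, a list drawn up after its values were seen, were the endothelial junction gene Cldn5 (Pearson's r = 0.894 over the 15 arrays, a description), Cutal (0.883), Lamtor1 (0.882), Yif1b (0.877) and the sterol sensor gene Insig1 (0.873). Insig1 ranged from 10.60 to 11.75 and Cldn5 from 5.38 to 6.34.

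Among the promoter windows of 8 of the 10 genes, GGCGCC was also found in 1 of 2 windows of Tfrc, and TTCTTGGAA in none of those of Bmp6, Fth1, Ftl1, Hfe, Tfr2 or Tfrc.

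The acute phase gene Saa3 was lower than in WT without the 2 doubted arrays, at -1.32 in NEMO/Jnk1 DKO livers (SE 0.17, limma adjusted p = 0.000462) and -0.70 in NEMO/Jnk2 DKO livers (SE 0.17, adjusted p = 0.0145), and differed by 0.15 in Jnk2 KO livers (SE 0.18, adjusted p = 0.811). In the same fit Saa1 differed from WT by -0.45 in NEMO/Jnk1 DKO (SE 0.52, adjusted p = 0.692), and was higher by 2.70 in NEMO/Jnk2 DKO (SE 0.52, adjusted p = 0.00425) and by 3.15 in Jnk2 KO (SE 0.58, adjusted p = 0.0176).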
